A study of Oryza sativa with 36 samples.

Results

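BURP2 and BURP17 are the rice genes followed here, in leaves of seedlings of a chilling-tolerant and a chilling-sensitive genotype. They were found as every probe set whose gene symbol or synonym in the array annotation is BURP2 or BURP17, which gave 3 of the 57258 probe sets and 2 of the 17905 genes named on the array. BURP2 (LOC4338119, NCBI gene 4338119) has 2 probe sets, Os.28427.1.S2_a_at, the brighter one and the one used unless stated, and Os.28427.2.S1_x_at. BURP17 (LOC4349896, NCBI gene 4349896, also listed as RDB1) has 1 probe set, Os.27795.1.S1_at. The genes were chosen by measured values of these data: BURP2 by its fall at 48 h of chilling and its levels in recovery, and BURP17 by its difference between the genotypes in unchilled leaves. Those values are therefore given as a description, with no test.

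The 36 Affymetrix rice arrays make 12 groups of 3 biological replicates. LTH (Li-Jiang-Xin-Tuan-Hei-Gu) is a chilling-tolerant japonica landrace, and IR29 is a chilling-sensitive indica cultivar. Seeds of both were incubated for 3 days before sowing. The seedlings then grew at 29 °C to the S3 stage, side by side in the same plates. Each genotype has a control group at 29 °C, 4 groups kept at 4 °C for 2 h, 8 h, 24 h or 48 h, and a recovery group chilled for 48 h and then given 24 h at 29 °C. The labels give 1 control group for each genotype, so the 5 comparisons of a genotype share its control arrays, and effects of time of day and of treatment cannot be told apart. As whole leaves were taken, fewer cells of a type and less RNA per cell cannot be told apart either.

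BURP proteins are plant proteins that share a C-terminal domain, named after 4 of its first known members, BNM2 of oilseed rape, USP of faba bean, RD22 of Arabidopsis and the PG1 beta subunit of tomato polygalacturonase. RD22 is known as a gene induced by dehydration and abscisic acid, and the tomato subunit binds polygalacturonase in the cell wall of ripening fruit. Many family members carry a signal peptide and are thought to act at the cell wall, where growth and water loss are met, and several rice members have been studied for their response to drought, salt and cold.

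BURP2 was high in unchilled leaves of both genotypes, low at every chilling time in both, and in recovery above the control in LTH and far below it in IR29. In LTH its intensity was 2168, 2037 and 1719 on the 3 control arrays, 300.7, 54.9 and 195.1 after 2 h, 72.3, 64.0 and 12.5 after 8 h, 88.1, 12.7 and 64.1 after 24 h, and 45.7, 38.0 and 6.64 after 48 h at 4 °C. The LTH recovery arrays read 3623, 2928 and 3793. All 12 chilled LTH arrays lay below all 3 control arrays, and the 3 recovery arrays lay above them.

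In IR29 the intensity of BURP2 was 2264, 1796 and 1532 on the control arrays, 591.4, 252.0 and 229.4 after 2 h, 382.9, 280.1 and 245.3 after 8 h, 162.2, 234.5 and 256.4 after 24 h, and 154.3, 154.7 and 80.6 after 48 h. The IR29 recovery arrays read 88.4, 19.9 and 22.9. All 12 chilled and all 3 recovery arrays of IR29 lay below its control arrays, and 2 of the 3 recovery arrays lay below every chilled IR29 array.

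**Figure D1:**
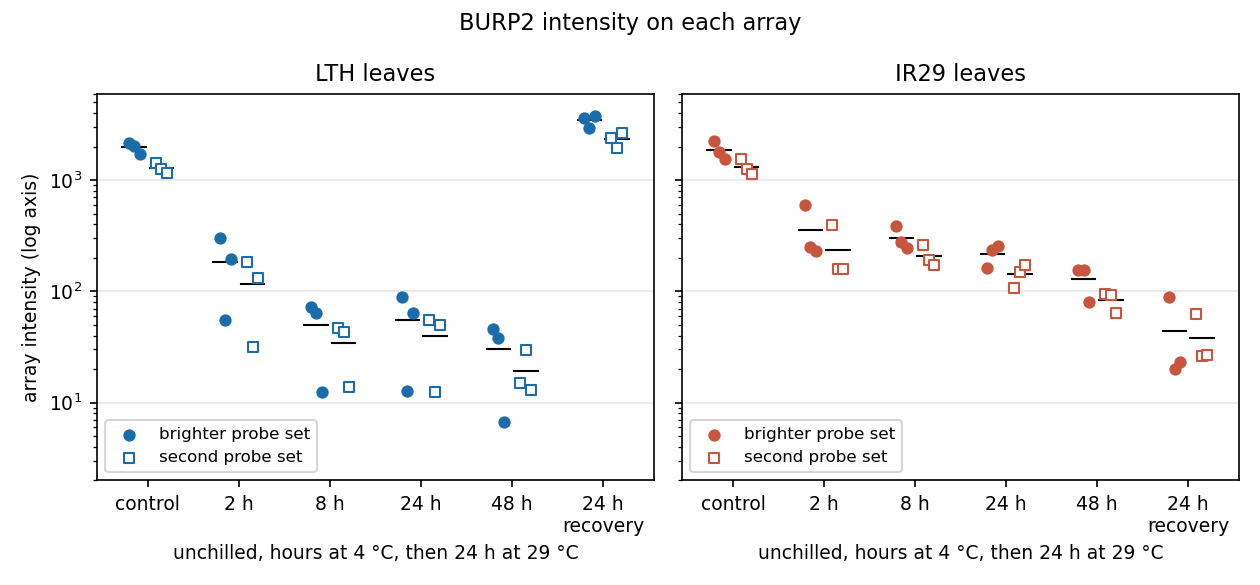
Array intensity of BURP2 (log axis) on each of the 3 arrays of every group, LTH left and IR29 right, with filled circles for the brighter probe set, open squares for the second one and black bars for the group means. Chilled arrays lie below the control in both genotypes, whereas recovery arrays lie at 2928 to 3793 in LTH and at 19.9 to 88.4 in IR29 on the brighter probe set.

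BURP2 fell in both genotypes within the first 2 h at 4 °C. The comparisons at 2 h, 8 h and 24 h use the control arrays of each genotype, which also entered the choice of the gene. Their p-values are therefore not independent of that choice. In LTH it averaged 184 ± 123 after 2 h, against 1970 ± 231 in the control (SD, n = 3 arrays each, as for all means below), a log2 fold change of -3.73 with a standard error of 0.71 (limma, Benjamini-Hochberg adjusted p = 0.00024). After 2 h, 6.62% of all probe sets were called down in LTH, where called means an adjusted p below 0.05 and a change of at least 2-fold. The 2 h LTH arrays spread over a wide range, replicate 2 (54.9) lying far under the other two, and without this array the log2 fold change was -3.02 (adjusted p = 0.0053).

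At 8 h and 24 h BURP2 averaged 49.6 ± 32.4 and 55.0 ± 38.5 in LTH, with log2 fold changes of -5.67 (adjusted p = 4.8e-07) and -5.56 (adjusted p = 3.9e-07). Shares of 6.5% and 10.9% of all probe sets were called down at these times in LTH. The log2 fold change at 8 h corresponds to a 50.9-fold lower geometric mean, with a 95% interval from -7.13 to -4.21 on the log2 scale. Means given with an SD are arithmetic, so their ratios differ from the folds. On replicate 3 at 8 h and replicate 2 at 24 h BURP2 read 12.5 and 12.7, the lowest of their groups, and without these arrays the log2 fold changes were -4.85 and -4.71, both still called.

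The fall in IR29 was called at the same times. BURP2 averaged 1860 ± 371 in the IR29 control, 358 ± 203 after 2 h, 303 ± 71.6 after 8 h and 218 ± 49.3 after 24 h. The log2 fold changes were -2.50 (adjusted p = 0.0093), -2.63 (adjusted p = 0.0069) and -3.11 (adjusted p = 0.0011), each with a standard error of 0.71. Of all probe sets, 9.49%, 7.98% and 11.4% were called down in IR29 at 2 h, 8 h and 24 h. The methods' t-test, used without adjustment, kept all 6 calls at the same fold changes. After Benjamini-Hochberg adjustment of that test, the BURP2 calls in LTH (adjusted p = 0.15, 0.13 and 0.14) and that at 2 h in IR29 (adjusted p = 0.12) were lost, and those at 8 h and 24 h in IR29 were kept.

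The step to 48 h and recovery, which entered the choice of the gene, carried the falls on and then parted the genotypes. After 48 h BURP2 averaged 30.1 ± 20.7 in LTH and 130 ± 42.7 in IR29, log2 fold changes over control of -6.44 and -3.89, the LTH value being -5.56 without replicate 3. In recovery it averaged 3450 ± 458 in LTH, 0.80 on the log2 scale above its control with a standard error of 0.71 and a 95% interval from -0.66 to 2.26, and 43.8 ± 38.7 in IR29, where the log2 fold change was -5.74 (-6.43 without replicate 1). The interval of the LTH value spans 0, although the arrays did not overlap. Its standard error pools the spread of all 12 groups, not that of the groups compared alone. The log2 SD was 0.20 in LTH recovery and 0.17 in the LTH control, but 1.28 after 2 h and 1.53 after 48 h in LTH. The difference between the genotypes in the recovery response was 6.55 with a standard error of 1.01, a description with no test. For scale, 2.56% of all probe sets were called in the recovery of LTH in either direction, and 20.7% in that of IR29.

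Before chilling no difference between the genotypes was detected in BURP2, on control arrays that also entered the choice of the gene. LTH and IR29 controls differed by 0.10 on the log2 scale, with a 95% interval from -1.37 to 1.56 (adjusted p = 0.97), and their arrays overlapped. At 8 h and 24 h of chilling the LTH arrays read lower. The log2 difference, LTH minus IR29, was -1.14 at 2 h (adjusted p = 0.35, arrays overlapping), -2.94 at 8 h (adjusted p = 0.0035) and -2.36 at 24 h (adjusted p = 0.016). All 3 LTH arrays lay below all 3 IR29 arrays at 8 h and at 24 h, where 4.47% and 6.5% of all probe sets were called lower in LTH.

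These level differences were added after the values had been seen. The call at 24 h was lost without LTH replicate 2 (log2 difference -1.51, adjusted p = 0.15) and without IR29 replicate 3 (-2.23, adjusted p = 0.058), and without LTH replicate 3 the difference at 8 h was -2.13, still called (adjusted p = 0.047). Neither call was kept by the methods' t-test with or without adjustment. Whether the fall from the control itself differed between the genotypes is a separate test, which again uses the control arrays that entered the choice of BURP2. The log2 difference in response, LTH minus IR29, was -1.23 at 2 h (adjusted p = 0.70), -3.04 at 8 h (adjusted p = 0.10) and -2.46 at 24 h (adjusted p = 0.16), none of them called, with 95% intervals from -3.30 to 0.84, from -5.11 to -0.97 and from -4.53 to -0.39. With the lowest LTH array of the time left out (replicate 2 at 2 h, 3 at 8 h and 2 at 24 h), these differences were -0.52, -2.22 and -1.60.

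The second BURP2 probe set followed the same course. Affymetrix gives the suffix _a_at to a set whose probes match transcripts of 1 gene and _x_at to a set with probes that also match other sequences, so signal of other transcripts may enter the second set. Its log2 fold changes in LTH were -3.80, -5.40 and -5.29 at 2 h, 8 h and 24 h, and in IR29 -2.59, -2.66 and -3.21, all called, the largest adjusted p being 0.0005. Over the 10 comparisons with a control, the fold changes of both probe sets lay within 0.54 of each other on the log2 scale, the widest gap being that of IR29 recovery. Unlike the brighter probe set, the second one passed the test for a difference in response at 8 h (-2.74, standard error 0.76, adjusted p = 0.042). At 8 h, 0.589% of all probe sets were called with a more negative response in LTH.

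Ordered by mean log2 intensity, BURP2 was highest in LTH recovery, followed by the LTH control and the IR29 control. Below the controls came IR29 at 2 h, 8 h and 24 h, LTH at 2 h, IR29 at 48 h, LTH at 24 h and 8 h, IR29 recovery and, last, LTH at 48 h. Neighbours in this order overlapped in their arrays except at 2 steps, between LTH recovery and the LTH control and between the IR29 control and IR29 at 2 h. Over the 36 arrays the gene ranged between 6.64 and 3793, from the 39.8th to the 99.8th percentile of the probe sets of an array.

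BURP17 showed another pattern, with high readings in every LTH group and low readings in every IR29 group. It read 1105, 1562 and 1371 on the LTH control arrays and 2.31, 2.65 and 2.08 on the IR29 control arrays. This control difference, the reason for choosing the gene, was 9.16 on the log2 scale. The lowest LTH array of any group (150.1) lay above the highest IR29 array of any group (5.37), so no LTH array overlapped with an IR29 array.

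In chilled LTH leaves the BURP17 intensity was 1171, 523.4 and 1092 after 2 h, 738.1, 762.3 and 1780 after 8 h, 430.1, 1502 and 150.1 after 24 h, and 429.9, 774.1 and 415.9 after 48 h. The LTH recovery arrays read 1588, 2316 and 1576. In IR29 the gene read 1.91, 3.04 and 3.44 after 2 h, 1.5, 1.51 and 2.88 after 8 h, 3.30, 3.34 and 2.02 after 24 h, 1.79, 5.37 and 2.58 after 48 h, and 2.57, 1.51 and 4.54 in recovery. The IR29 readings lay between percentiles 5.88 and 31.2 of the probe sets of their arrays, and the LTH readings between percentiles 82.6 and 99.4.

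**Figure D2:**
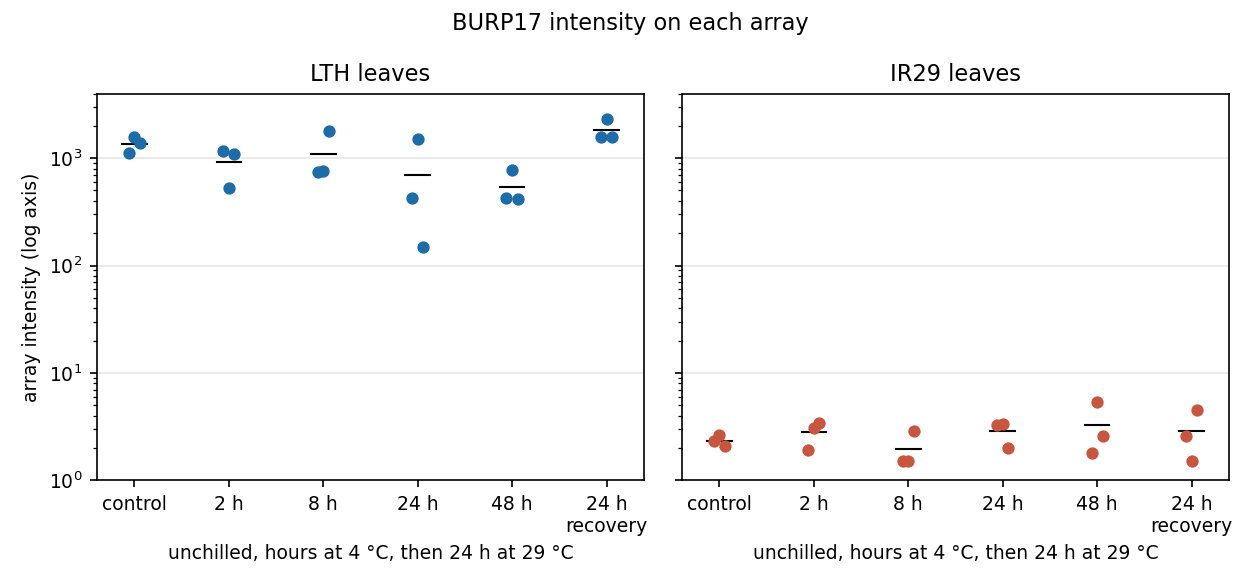
Array intensity of BURP17 (log axis) on each array, LTH left and IR29 right, with black bars for group means. LTH arrays lie between 150.1 and 2316 and IR29 arrays between 1.5 and 5.37 in all 12 groups.

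In the chilled and recovery arrays the difference between the genotypes was called in every group. The gene was chosen with earlier results of these data known, and a standing gap between the genotypes would recur in each group. These calls are therefore no independent support for the control difference. LTH minus IR29 was 8.33 at 2 h (adjusted p = 6.4e-13), 9.06 at 8 h (adjusted p = 1.1e-13), 7.35 at 24 h (adjusted p = 9.4e-12), 7.47 at 48 h (adjusted p = 6.9e-12) and 9.43 in recovery (adjusted p = 3.8e-14), each with a standard error of 0.54 on the log2 scale. Of all probe sets, 6.88%, 6.74%, 8.21%, 9.29% and 11.0% were called higher in LTH in these 5 groups. Because IR29 values sit near the bottom of the scale, the size of the fold depends on how such values are treated: with every value under 3.16, the 20th percentile of all values, raised to it, the control difference was 8.72. Without LTH 24 h replicate 2 or 3 the 24 h difference was 6.50 or 8.16, still called. The methods' t-test, used without adjustment, kept the calls in all 5 groups. After Benjamini-Hochberg adjustment of that test, those at 24 h (adjusted p = 0.16) and 48 h (adjusted p = 0.065) were lost. A difference in transcript level and a difference in sequence under the probes, most of which were designed on japonica rice, cannot be told apart for this gene.

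Within LTH, only the 24 h comparison of BURP17 was called. The gene averaged 1350 ± 230 in the LTH control, 929 ± 353, 1090 ± 595, 694 ± 713 and 540 ± 203 after 2 h, 8 h, 24 h and 48 h, and 1830 ± 424 in recovery. These comparisons use the LTH control arrays that also entered the choice of the gene. At 24 h it was called down, with a log2 fold change of -1.54 and a standard error of 0.54 (adjusted p = 0.033), although replicate 2 (1502) lay inside the control range and replicate 3 (150.1) far below it.

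The 24 h call for BURP17 in LTH was not kept when single arrays were left out. Without 24 h replicate 3 the log2 fold change was -0.73 (adjusted p = 0.36), without 24 h replicate 1 it was -1.49 (adjusted p = 0.083), without control replicate 2 it was -1.42 (adjusted p = 0.099) and without control replicate 3 it was -1.52 (adjusted p = 0.076). At 48 h all 3 chilled arrays lay below the control arrays, yet the log2 fold change of -1.37 just missed the threshold (adjusted p = 0.053), and without 48 h replicate 2 it was -1.66 and passed (adjusted p = 0.039). At 24 h and 48 h, 10.9% and 13.1% of all probe sets were called down in LTH.

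The other LTH comparisons of BURP17 were not called. The log2 fold change was -0.61 at 2 h (adjusted p = 0.51), -0.41 at 8 h (adjusted p = 0.69) and 0.43 in recovery (adjusted p = 0.85), with 95% intervals from -1.72 to 0.50, from -1.53 to 0.70 and from -0.68 to 1.54. In recovery the 3 LTH arrays nonetheless lay above the 3 control arrays. The interval pools the spread of all 12 groups, with a log2 SD of 1.66 in LTH at 24 h against 0.32 in LTH recovery. In IR29 none of the 5 comparisons was called, and the log2 fold changes ran from -0.32 to 0.32. By mean log2 intensity the LTH groups were ordered as recovery, control, 8 h, 2 h, 48 h and 24 h, with overlapping neighbours except between recovery and control, and all neighbours among the IR29 groups overlapped.

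At 8 h and 24 h in LTH, an array on which BURP17 was high and BURP2 low also stood apart in genes of dividing cells. The summed intensity of 8 such genes, among them PCNA, the sliding clamp of DNA replication, MCM2 and MCM5, parts of the replicative helicase, and mitotic cyclins, was 495, 363 and 1770 on the LTH arrays of 8 h and 347, 1070 and 230 on those of 24 h. BURP17 was highest of its group on replicate 3 at 8 h (1780) and replicate 2 at 24 h (1502), the arrays with the high sums, and BURP2 was lowest there. Over the 6 LTH groups, the array with the highest dividing-cell sum was the one with the highest BURP17 in 4 groups and the lowest in the other 2, and the one with the lowest BURP2 in 4 groups and the highest in the other 2. Over the 6 IR29 groups BURP17 was highest on that array in 1 group and lowest in 4. Its IR29 readings, 1.5 to 5.37, lay near the bottom of the scale, so their order carries little weight. BURP2 was highest on that array in 3 IR29 groups and lowest in 2.

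BURP3 and BURP12, other genes of the family, were also highest on these arrays, at 490.3 and 67.3 on replicate 3 of 8 h and at 210.4 and 53.0 on replicate 2 of 24 h. The rest of the family, BURP10, BURP13 and BURP16, did not share this. They were lowest of their group on replicate 3 of 8 h, at 4.62, 10.05 and 2214. On replicate 2 of 24 h they lay between the other arrays of the group. The dividing-cell sum also differed between groups, at 242 to 269 after 2 h and 974 to 1150 in the control of LTH. In IR29 recovery, where BURP2 was lowest among the IR29 groups, it was 120, 152 and 113, against 333, 664 and 203 in the control. There 6 of the 8 genes were called down, beside 11.7% of all probe sets. In LTH recovery 4 of the 8 were called down, at sums of 249 to 444, beside 1.22% of all probe sets. A further fit left out the 3 arrays whose sum was over 2 times that of each other array of their group. They were LTH 8 h replicate 3, LTH 24 h replicate 2 and IR29 2 h replicate 1. This fit was added after the values had been seen, and it drops the LTH 24 h array with the highest BURP17 (1502). BURP17 in LTH was then at -2.39 at 24 h (adjusted p = 0.0002) and at -1.37 at 48 h (adjusted p = 0.011). Both were called, which is no separate support for a fall. The BURP2 calls at 2 h, 8 h and 24 h in LTH and IR29 were kept, and the level difference of BURP2 between the genotypes at 24 h was not called (-1.51, adjusted p = 0.085). The part of dividing cells in these results was not tested.

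**Figure D3:**
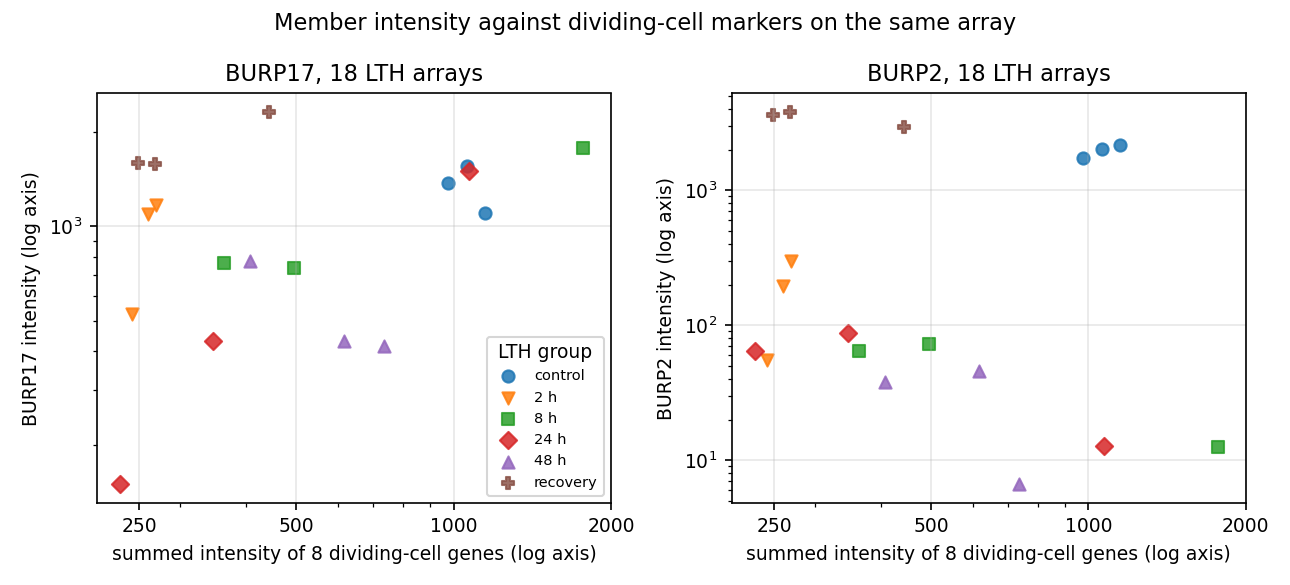
Intensity of BURP17 (left) and BURP2 (right) against the summed intensity of 8 dividing-cell genes on the same array, for the 18 LTH arrays, all axes log, symbols by group. At 8 h and 24 h the array with the highest sum (1770 and 1070) has the highest BURP17 and the lowest BURP2 of its group.

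Mesophyll genes gave strong signals on all arrays. The summed intensity of RBCS and CAB2R, the Rubisco small subunit and a chlorophyll-binding protein of mesophyll, was 8990 to 9630 in the control, 4220 to 4820 after 48 h and 10100 to 10400 in recovery of LTH. In IR29 it was 9020 to 10300 in the control, 3840 to 7470 after 48 h and 3160 to 4610 in recovery. So this sum, like BURP2, was low in IR29 recovery and not in LTH recovery. It holds only 2 genes of 15 names listed, and 1 of them was called down in IR29 recovery, beside 11.7% of all probe sets. Over all arrays CAB2R ranged between 543 and 5900 and RBCS between 1870 and 4480. The part of this mesophyll sum in the BURP2 values was not tested. Over all arrays, the sum was 997 to 2660 for 5 epidermis genes, 568 to 1100 for 6 shoot meristem genes and 53.7 to 288 for 6 anther tapetum genes. Single genes carried the last 2 sums, OSH45 at 474 to 1080 and GAMYB at 28.1 to 256, while the medians of the others lay between 2.32 and 16.1 for the meristem and between 2.73 and 10.8 for the tapetum. A sum of 4 root genes, with the nicotianamine synthases NAS1 and NAS2, ranged between 39.7 and 5540 and differed up to 12.4-fold among arrays of 1 group. It was lowest in IR29 recovery (39.7 to 120), where all 4 genes were called down, beside 11.7% of all probe sets. The part of this root sum in the results was not tested. Correlations between arrays of 1 group lay between 0.9131 and 0.9772 across probe sets.

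Of the 9 BURP genes named in the rice annotation, 7 had a probe set, which left 5 beside BURP2 and BURP17. Over the 10 comparisons with a control, these 5 genes gave 7 calls up and 11 calls down. None of the 5 was called down at 2 h, 8 h and 24 h in the same genotype, as BURP2 was in both. BURP3 was called down at 24 h and 48 h in LTH and at 2 h and 48 h in IR29. Its standard error was 1.27, against 0.71 for BURP2, so its missing calls do not show a different course. Called genes by comparison were in LTH 1 up and 1 down at 2 h, 1 up at 8 h, 1 up and 3 down at 24 h, 1 up and 2 down at 48 h and 1 up in recovery, against 13.6%, 13.8%, 20.4%, 25.5% and 2.56% of all probe sets called in either direction. In IR29 they were 1 down at 2 h, 1 down at 8 h, 1 up at 24 h, 2 down at 48 h and 1 up and 1 down in recovery, against 16.5%, 15.2%, 19.9%, 24.4% and 20.7%.

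**Figure D4:**
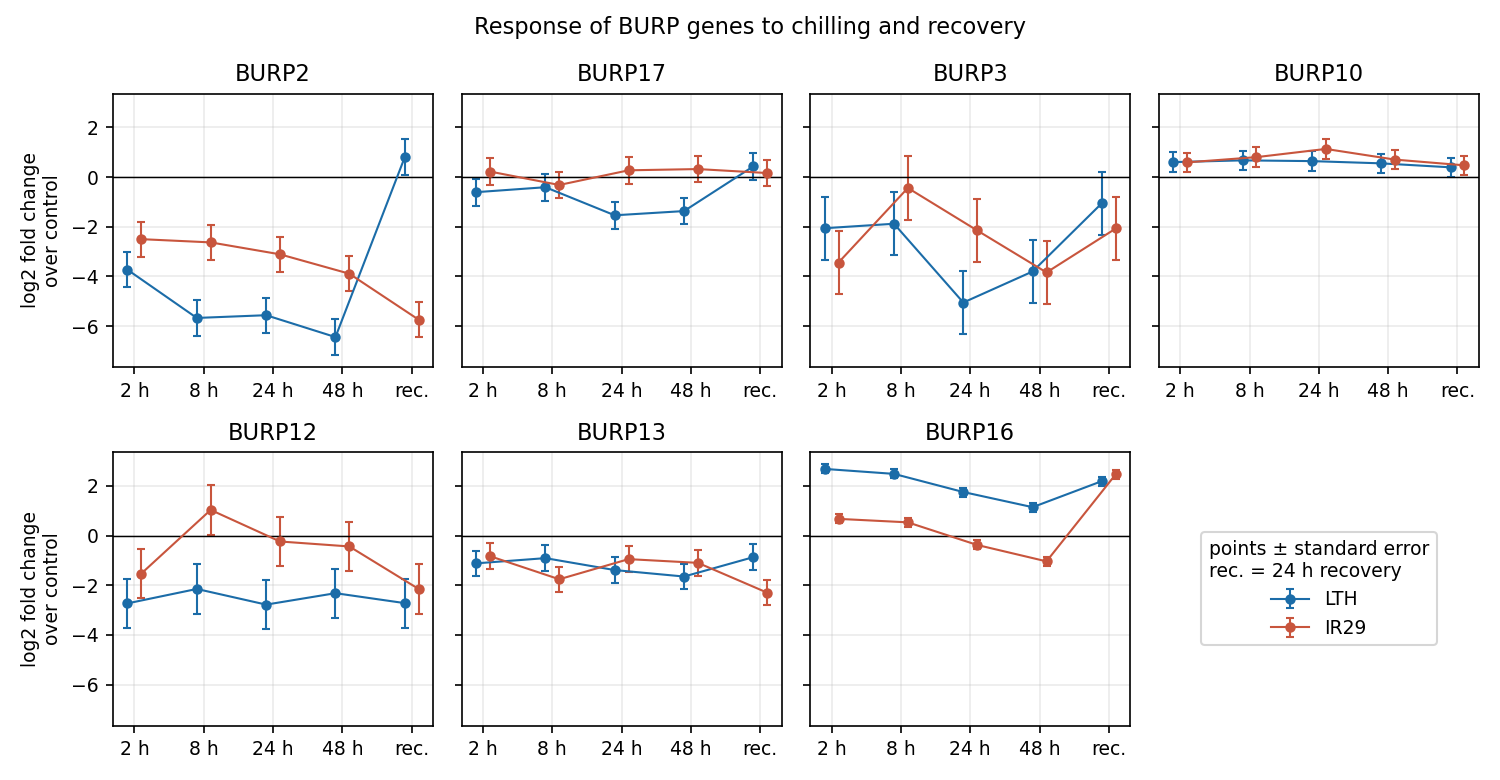
Log2 fold change over the control of the same genotype for BURP2, BURP17 and the 5 other BURP genes on the array, LTH in blue and IR29 in red, at 2 h, 8 h, 24 h and 48 h of chilling and in recovery (rec.), bars giving the standard error. BURP2 lies below 0 at every chilling time and parts in recovery (0.80 in LTH, -5.74 in IR29), while BURP16 lies above 0 in LTH at all times.

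BURP16, also known as WGP1 and related to the tomato polygalacturonase subunit, ran opposite to BURP2 in chilled LTH leaves. It averaged 447 ± 55.7 in the LTH control, 2850 ± 293 after 2 h, 2510 ± 506 after 8 h, 1510 ± 338 after 24 h, 992 ± 183 after 48 h and 2060 ± 398 in recovery. These are log2 fold changes of 2.68, 2.48, 1.75, 1.14 and 2.19, all called, with adjusted p from 5.6e-12 to 7.7e-06 and no overlap with the control. At 48 h the change was at the 2-fold threshold without 48 h replicate 3 (1.0 on the log2 scale) and was then not called.

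In IR29 BURP16 averaged 636 ± 95.1 in the control, 1010 ± 159 after 2 h, 913 ± 90.4 after 8 h, 487 ± 20.1 after 24 h, 311 ± 56.9 after 48 h and 3520 ± 474 in recovery. It was called down at 48 h (log2 fold change -1.04, adjusted p = 3.5e-05), a call at the edge of the 2-fold threshold that was lost without IR29 control replicate 1 (-1.0) or 2 (-0.95) and without 48 h replicate 1 (-0.87), and it was called up in recovery (2.47, adjusted p = 8.9e-12). So in IR29 recovery, where BURP2 was 43.8 ± 38.7, BURP16 had its highest mean of the 12 groups. The response of BURP16 differed between the genotypes at each chilling time, by 2.01, 1.95, 2.12 and 2.18 at 2 h, 8 h, 24 h and 48 h (adjusted p from 1.8e-06 to 4.4e-05), where 1.19%, 2.26%, 4.02% and 5.89% of all probe sets were called with a more positive response in LTH, and not detectably in recovery (-0.28, 95% interval -0.81 to 0.25).

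The 11 other calls of the family against a control were spread over BURP3, BURP10, BURP12 and BURP13, and 9 of them were lost when 1 array or another was left out. BURP3 was called down in LTH at 24 h, with 4.25, 210.4 and 2.73 on the chilled arrays against 376.9, 532.8 and 439.3 in the control (log2 fold change -5.05, adjusted p = 0.0027). BURP13, known as RAFTIN1 and needed in rice for pollen development, was called down in IR29 recovery, with 3.72, 6.61 and 2.54 on the recovery arrays against 14.6, 21.3 and 23.8 in the control (-2.30, adjusted p = 0.00072). The replicate block ended the calls of BURP12 in LTH and BURP3 in IR29 at 2 h (-2.73 and -3.44, both at adjusted p = 0.056). The calls of BURP3 at 24 h in LTH and BURP13 in IR29 recovery were kept in all 14 alternative limma fits made for them. In IR29 recovery BURP13 was called down and BURP16 up, beside 20.7% of all probe sets called in either direction. BURP3 (-2.07, adjusted p = 0.25), BURP12 (-2.15, adjusted p = 0.11) and BURP10 (0.47, adjusted p = 0.41) were not called there.

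Between the genotypes, the other family genes gave 5 calls, all higher in LTH. BURP16 was called at 2 h, 8 h, 24 h and 48 h, with log2 differences of 1.5, 1.45, 1.62 and 1.67, and BURP13 in recovery (1.80, adjusted p = 0.0075, lost without IR29 recovery replicate 3 at 1.48 and adjusted p = 0.058). Of all probe sets, 6.88%, 6.74%, 8.21%, 9.29% and 11.0% were called higher in LTH at 2 h, 8 h, 24 h, 48 h and in recovery, against 1 of the 5 genes in each. None of the 5 was called in the control, where 7.5% of all probe sets were called in either direction. BURP17 had log2 differences of 7.35 to 9.43 in the same groups.

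Among genes of related roles, expansins, which loosen cell walls, were counted beside BURP2. Of 25 expansin genes on the array, 6, 5, 8 and 6 were called down in LTH at 2 h, 8 h, 24 h and 48 h and none in recovery, with median log2 fold changes of -1.11, -0.56, -1.51, -1.13 and -0.82. Of all probe sets, 6.62%, 6.5%, 10.9%, 13.1% and 1.22% were called down in these LTH comparisons. In IR29 5, 3, 4, 3 and 7 were called down at these times and in recovery, with medians of -0.55, -0.11, -0.39, -0.21 and -1.08, beside 9.49%, 7.98%, 11.4%, 13.8% and 11.7% of all probe sets. Called up were 1 expansin in LTH, at 24 h, and 1 or 2 in IR29 at each chilling time and in recovery. The medians over all probe sets lay between -0.06 and 0.05. The single xyloglucan endotransglucosylase gene on the list was called down in LTH at 24 h and 48 h and in IR29 recovery (-1.68, -2.19 and -1.70).

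Of 9 genes induced by dehydration or abscisic acid, 5 were called up and 1 down in LTH recovery, the group in which BURP2 was highest, with a median log2 fold change of 2.10, where 2.56% of all probe sets were called in either direction. In IR29 recovery 2 were called up and 1 down, with a median of 0.36, where 20.7% of all probe sets were called. At the 4 chilling times 1 or 2 of the 9 were called up and 1 or 2 down in each genotype, beside 13.6% to 25.5% of all probe sets in LTH and 15.2% to 24.4% in IR29.

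The genes whose means over the 12 groups followed BURP2 most closely were sought among 12369 genes. They were LOC4332348, LOC4346237, LOC4334106, LOC4343647 and LOC4342438, with Pearson correlations of 0.981 to 0.988 over 12 groups, and 152 genes were correlated above 0.9. Each of the 5 had the drop at 2 h, the return in LTH recovery and the low level in IR29 recovery, but over a narrower range than BURP2. The shared course follows from picking the genes by these same means. LOC4332348, for example, had geometric means of 472.4 in the LTH control, 54.7 after 48 h and 565.6 in LTH recovery, and of 484.3, 115.3 and 71.1 in the same IR29 groups.

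For BURP17 the closest genes were LOC4326058, LOC4352057, LOC4352358, LOC4348034 and LOC4339505, with correlations of 0.995 to 0.998, and 222 genes were above 0.9. Here the correlation rests on the gap between the genotypes, as 6 of the 12 groups are high and 6 low. LOC4352358, for example, lay between 1271.7 and 2422.3 in the LTH groups and between 2.5 and 3.8 in the IR29 groups. LOC4348034 shared more of the course of BURP17 in LTH, at 207.4 in the control, 54.1 after 48 h and 266.2 in recovery.

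**Figure D5:**
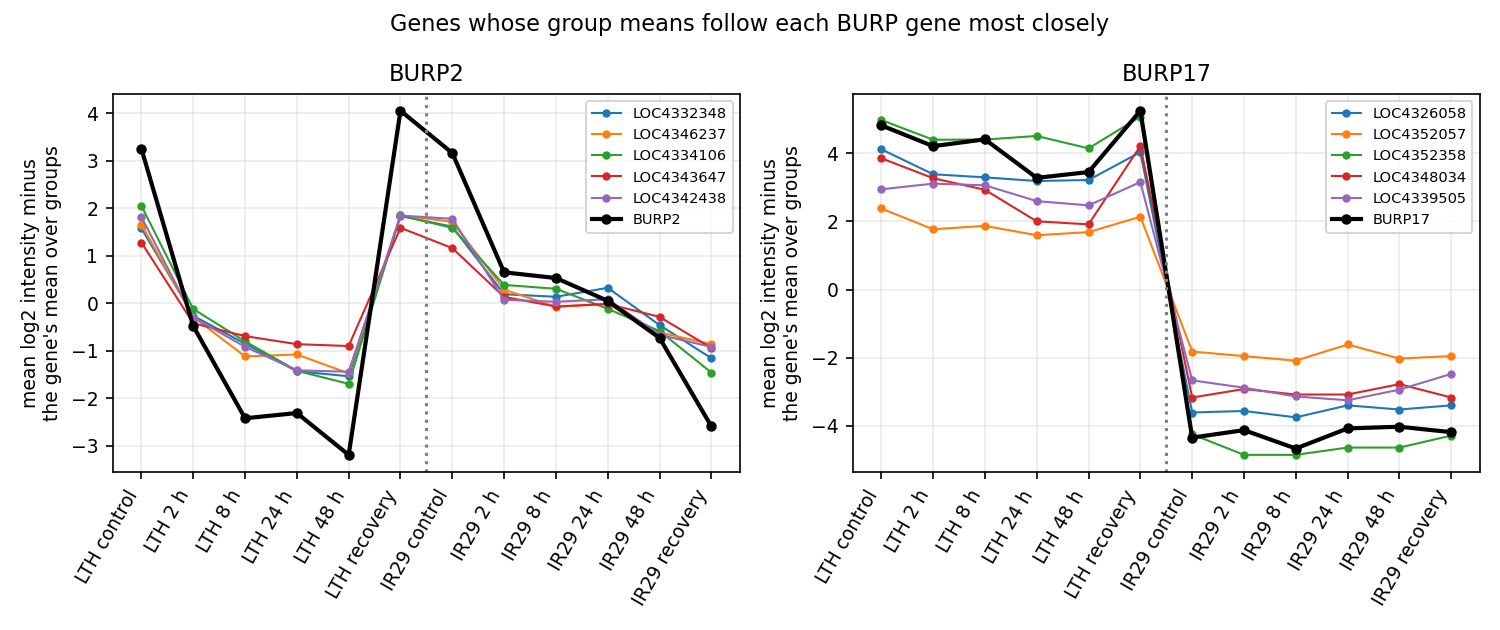
Mean log2 intensity in each of the 12 groups, minus the mean of the gene over the groups, for BURP2 (left, black), BURP17 (right, black) and the 5 genes most correlated with each. BURP2 spans the widest range of its set, and the BURP17 set is split between high LTH and low IR29 groups.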

How the data were processed

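Leaves of LTH and IR29 seedlings were measured on 36 Affymetrix rice arrays, 3 per group in 12 groups. Per the labels and the methods, the authors read the scans with GCOS and used dChip for normalization between arrays. What they deposited is a linear intensity for each probe set and array. No further normalization was done; any value under 1 was raised to 1 before taking log2. Array medians lay between 9.81 and 11.16. The deposited intensities hold no detection calls or probe counts, so precision is known only from the spread of 3 arrays.

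All 12 group means were fitted in 1 linear model over 57258 probe sets with limma 3.58.1 in R 4.3.3 (eBayes with an intensity trend), after tests on simulated data. Calls needed an adjusted p (Benjamini-Hochberg, over all probe sets of a comparison) below 0.05 and a change of at least 2-fold. The 21 comparisons were 10 with a control, 6 between genotypes and 5 differences in response. The methods' t-test was an alternative, with quantile normalization, median centring, a raised floor, a filter on dim probe sets, no intensity trend, a replicate block, a fit restricted to the groups compared and each array left out.

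Genes were named through the platform annotation and RefSeq, giving 22436 probe sets with 1 gene, 95 with several and 34727 with none; a gene's brightest probe set stood for it. The members and lists were chosen with earlier results of these data known. Named genes were the members, the other BURP genes, and the 5 genes most correlated with each member among those with a group mean of at least 100. Of the names listed as markers or related genes, those on the array were used. The BURP2 level differences between genotypes at 2 h, 8 h and 24 h, and the fit without arrays high in dividing-cell genes, were added after the values had been seen. No sequence was used here.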

Additional observations from a re-analysis of the deposited data

Results flagged for a closer look

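In recovery BURP2 lay on opposite sides of its control in the genotypes. All 3 LTH recovery arrays lay above the LTH control and all 3 IR29 recovery arrays below the IR29 control, a difference in response of 6.55 on the log2 scale that was not tested, because it entered the choice of the gene. The LTH side alone, at 0.80 with a standard error of 0.71, has a 95% interval from -0.66 to 2.26 that spans 0. This standard error is pooled over all 12 groups, and every other group had a wider log2 spread of BURP2 than LTH control and LTH recovery. On the second BURP2 probe set the difference in response at 8 h passed the test at -2.74, while the brighter one gave -3.04 and did not pass (adjusted p = 0.10). The response of BURP16 differed between the genotypes at 2 h, 8 h, 24 h and 48 h, by 2.01, 1.95, 2.12 and 2.18 on the log2 scale, and was called in all 20 alternative limma fits at each time.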

How the results depend on the processing

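No called result changed sign. Unadjusted, the methods' t-test kept the calls of BURP2 against a control and of BURP17 between the genotypes. After Benjamini-Hochberg adjustment the methods' t-test, which estimates each gene's spread from the arrays compared, kept the values but lost the calls of BURP2 in LTH at 2 h, 8 h and 24 h (-3.73, -5.67, -5.56; adjusted p = 0.15, 0.13 and 0.14) and in IR29 at 2 h (-2.50, 0.12), and of the BURP17 genotype difference at 24 h (7.35, 0.16) and 48 h (7.47, 0.065). Calls of other BURP genes against a control fell to 4 up and 1 down with it, from 7 and 11, and to 0 from 5 between the genotypes. Fitted on only the groups compared, the BURP2 difference in response at 8 h passed (-3.04, 0.031), as it did on the second probe set (-2.74), and BURP17 in LTH at 24 h did not (-1.54, 0.19), nor by the methods' t-test (unadjusted p = 0.25, adjusted 0.48). BURP17 in LTH at 48 h passed with quantile normalization (-1.43), median centring (-1.39), and, at -1.37, a raised floor, the dim filter, only the groups compared, the unadjusted methods' t-test and the fit without arrays high in dividing-cell genes. The recovery difference of BURP2 was 6.28 after quantile normalization and 6.06 on the second probe set, and the BURP17 control difference 8.72 with the raised floor. Calls down among other BURP genes were 7 after quantile normalization. Calls lower in LTH, 0 in the report, were 1 with no fold minimum and 2 without arrays high in dividing-cell genes. The causes were not tested.

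With single arrays left out, BURP17 in LTH ran from -2.39 to -0.73 at 24 h and from -1.66 to -1.21 at 48 h, and the recovery difference of BURP2 from 6.15 to 7.23. Calls down of other BURP genes ran from 7 (without LTH control replicate 2) to 12, and calls lower in LTH from 0 to 1 (without LTH 24 h replicate 2). Same-numbered replicates did not deviate together: the lowest of the 3 correlations was 0.1 or less in all comparisons of groups except LTH minus IR29 at 2 h (0.276, 0.110 and 0.135), and a replicate block left BURP2 in LTH at 2 h at -3.73 and changed no call of BURP2 or BURP17, but ended those of BURP12 in LTH (-2.73) and BURP3 in IR29 (-3.44) at 2 h, both at adjusted p = 0.056. With 3 arrays a group, and no measure of background, small changes and all changes of BURP17 in IR29 are poorly bounded.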
